A study of Mus musculus with 12 samples.

Results

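The comparison described here sets primary mouse mammary organoids treated with 1 µM CHIR99021, the lowest dose of a dose series, against organoids given the vehicle dimethyl sulfoxide (DMSO). It uses the 3 libraries labelled 1 µM and the 3 labelled DMSO, 6 of the 12 libraries of the series, paired by the culture they came from. CHIR99021 is a small-molecule inhibitor of the kinase GSK3. GSK3 marks β-catenin (CTNNB1) for destruction, so its inhibition lets β-catenin build up and act with TCF/LEF factors on WNT target genes. In the mammary gland WNT signalling is known for its part in basal and stem-like epithelial cells, and strong activation is known to turn mammary epithelium towards squamous, epidermis-like differentiation. In that programme, suprabasal keratins, desmosomal cadherins and cornified envelope proteins build a water-tight surface layer.

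The organoids were made from mammary glands of virgin female FVB/N mice aged 8 to 11 weeks, embedded in growth-factor reduced Matrigel and kept in minimal medium. Every group was treated for 7 days. The vehicle group received DMSO, and the other group 1 µM CHIR99021. Cultures 1, 2 and 3 each came from 1 animal and were split over all treatments, so a culture is the unit of replication and the pairing is by animal. The remaining 6 libraries, at 1.5 and 3 µM, entered the model for the estimate of the spread and for the filter on low counts, so they helped decide which genes were tested, and are quoted where the same genes are followed to higher doses.

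The 6 libraries held 10.1 M counts (DMSO, culture 2) to 21.7 M counts (DMSO, culture 1). Epithelial markers were present in all 6: Epcam, an epithelial adhesion molecule, ran from 380.03 to 651 counts per M counts (CPM), and the luminal keratin gene Krt18 from 460.4 to 663 CPM. Marker genes of other cell types were present as well. Fibroblast markers (16 genes) summed to 4867 to 28725 CPM, adipocyte markers (10 genes) to 2381 to 17916 CPM, endothelial markers (12 genes) to 161 to 768 CPM, and macrophage and leukocyte markers (13 genes) to 314 to 3090 CPM. Culture 3 held the most fibroblast and macrophage RNA and culture 1 the least. In a principal component analysis of these 6 libraries the first component (57.5% of the variance) placed the cultures in the order 1, 2, 3. Each 1 µM library lay below the DMSO library of its own culture on this component and on the second (25%).

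Of 15316 genes tested, 859 (5.61%) differed between 1 µM and DMSO at an adjusted p under 0.05 in edgeR's quasi-likelihood test with Benjamini-Hochberg adjustment; these are the genes written of below as called, as higher or as lower. Higher at 1 µM were 390 genes (2.55%) and lower were 469 (3.06%). The median log2 fold change was 0.65 among the higher genes, −0.76 among the lower and −0.006 over all genes. In 857 of the 859 the 1 µM library was on the same side of its DMSO partner in all 3 cultures. Over all genes tested this held for 4326 in the higher (28.2%) and 4655 in the lower direction (30.4%). The 3 libraries of a group did not overlap with the 3 of the other in 606 of the called genes, and in 2976 of all tested (19.4%).

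The number of calls rested on the pairing and on single libraries. Without the culture term 37 genes were called, 29 higher and 8 lower. Leaving out the DMSO library of culture 1, 2 or 3 left 525, 86 and 807 calls. Leaving out the 1 µM library of culture 1, 2 or 3 left 88, 75 and 116, and leaving out culture 1, 2 or 3 altogether left 60, 0 and 1556. Without culture 2, edgeR called no gene, with 1670 at an unadjusted p under 0.05. Scaling by library size alone gave 872 calls, split 582 higher and 290 lower. No called gene changed its direction under any of the alternatives run. Since 857 of the 859 had 1 direction in all 3 cultures, this was largely fixed by their selection and is no separate support.

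**Figure D1:**
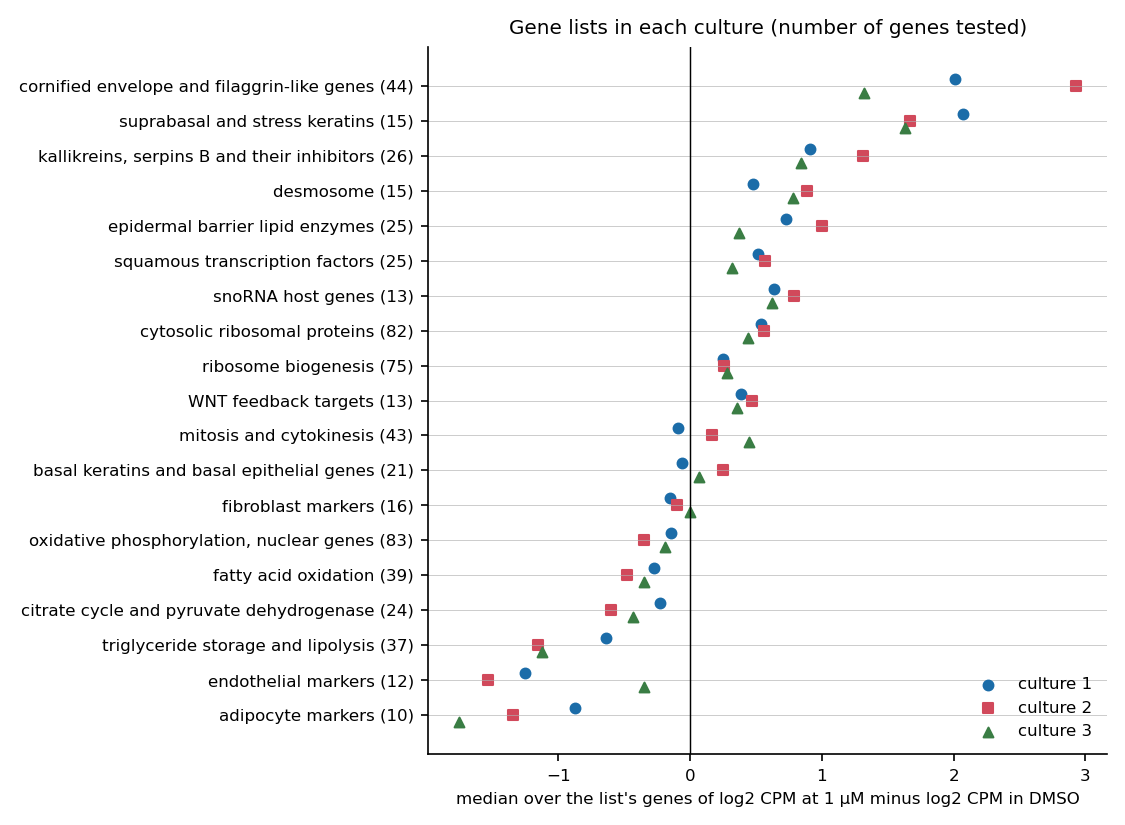
Median difference in log2 CPM, 1 µM minus DMSO, over the genes of 19 lists (horizontal axis, log2 units), with 1 symbol for each culture and the number of genes tested in brackets. The squamous lists lie to the right of 0 and the adipocyte and endothelial lists to the left in all 3 cultures, while the mitosis list lies at −0.09, 0.17 and 0.45.

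The direct pathway readout moved at 1 µM, but only in part of the WNT feedback genes. Axin2, a scaffold of the β-catenin destruction complex and a standard target of the pathway (chr11:108920349-108950783, GRCm38), stood at 3.24, 2.74 and 2.26 CPM in DMSO cultures 1, 2 and 3 and at 19.5, 5.84 and 7.38 CPM at 1 µM. Every treated library lay above every vehicle library, and culture 1 was the highest of the treated. The fitted log2 fold change was 1.91 (SE 0.25, edgeR quasi-likelihood test with Benjamini-Hochberg adjusted p = 0.00887). Wif1, a secreted inhibitor that binds WNT ligands (chr10:121033960-121100650), rose from 10.4, 4.87 and 9.31 to 33.8, 22.4 and 24.1 CPM (log2 fold change 1.65, SE 0.35, adjusted p = 0.0357). Lgr5, the R-spondin receptor used as a stem cell marker in several epithelia (chr10:115450311-115587780), went the other way, from 231, 175 and 155 CPM to 95.03, 77.1 and 112 CPM (−1.01, SE 0.23, adjusted p = 0.0386). Its groups did not overlap either. The call of Axin2 was lost without culture 1 or without culture 2. Those of Wif1 and Lgr5 were lost without the DMSO library of culture 1 or 2, without any 1 µM library, and without culture 1 or 2.

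Of 13 WNT feedback genes tested, 8 were higher in all 3 cultures. Called were 2 higher and 1 lower (23.1%, against 5.61% of all genes), with a median of 0.47 over the list. Among those not called were Nkd2, an inhibitor of Dishevelled (1.20, SE 0.35, adjusted p = 0.0804), the ubiquitin ligase genes Rnf43 (0.47, SE 0.12, adjusted p = 0.0611) and Znrf3 (0.35, SE 0.12, adjusted p = 0.126), and the transcription factor gene Lef1 (0.63, SE 0.54). DESeq2 called 4 of the list higher and 1 lower. Of 33 WNT ligand and receptor genes, 2 were higher and 1 lower (9.09% called). The ligand gene Wnt10b rose (1.81, SE 0.32), the WNT receptor tyrosine kinase gene Ror2 rose (0.61, SE 0.13), and the Frizzled receptor gene Fzd4 fell (−1.07, SE 0.24). Wif1, which rose, was counted with the feedback genes. Of 8 other secreted antagonist genes 1 was called (12.5%), Sfrp1, which fell by 1.24 on the log2 scale. The destruction complex and its partners had a median of 0.08 over 21 genes and 1 call, the β-catenin coactivator gene Bcl9 (0.41, SE 0.09). That share, 4.76%, was below the 5.61% of all genes called. Ctnnb1 itself had a log2 fold change of 0.01 (SE 0.16). Without culture 2 none of these genes was called, and the WNT feedback list held between 0 and 3 higher calls over the 9 fits that left out a library or a culture. Sfrp1 lost its call in each of the 9.

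The largest increases at 1 µM were in genes of the epidermis. Of 44 cornified envelope and filaggrin-like genes tested, 20 were higher and 0 lower, against 5.61% of all genes called, and 37 were higher in all 3 cultures. Their median log2 fold change was 3.15, or 3.01 with the 8 genes that had no count in a whole group set to the bound that a floor of 3 counts allows. Many of the 44 passed the filter on low counts only through the higher doses, where they are abundant, so the count and median describe the genes that passed and support nothing further. With the filter and the fit on the 6 DMSO and 1 µM libraries alone, 23 were tested and 20 higher (median 2.82), and with a mean of at least 50 counts 18 were tested and 13 higher (median 2.48). These too may have passed through their 1 µM libraries alone. Of 15 suprabasal and stress keratins 8 were higher and 0 lower (53.3% called, median 1.86). In all 3 cultures 10 of them were higher and 2 lower, and the lowest fitted value was −2.13. On the 6 libraries alone, without the 3 µM group, or without culture 3, 1 keratin gene was called lower. Of 15 desmosome genes 6 were higher and 0 lower (40.0% called, median 0.90), and all 15 were higher in all 3 cultures. On the 6 libraries alone 12 of the keratins and 13 of the desmosome genes were tested, with medians of 2.24 and 0.69.

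Krt1 and Krt10 encode the keratin pair of suprabasal epidermis. Krt1 (chr15:101845428-101850786) had the largest fitted increase of the genes with an average of at least 50 counts. It was at 1.20, 0.304 and 0.431 CPM in DMSO and at 75.4, 171 and 6.64 CPM at 1 µM, a log2 fold change of 6.47 (SE 0.87, edgeR adjusted p = 0.00893). Krt10 was at 9.81, 3.55 and 4.09 CPM in DMSO and at 141, 221 and 32.0 CPM at 1 µM (4.12, SE 0.92, adjusted p = 0.0384). In both genes culture 2 was the highest treated library and culture 3 the lowest, and no treated library reached down to a vehicle one. The call of Krt1 was lost without the DMSO library of culture 2 and without culture 1 or 2. Krt10 kept its call only without the DMSO library of culture 3 and without culture 3.

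The stress keratins Krt6a, Krt6b, Krt16 and Krt17, which mark wounded and fast-renewing epidermis, were all higher. Krt6a went from 47.2, 23.8 and 22.4 to 199, 179 and 183 CPM, and Krt16 from 14.1, 5.48 and 5.01 to 82.9, 85.3 and 65.0 CPM. The 3 treated cultures were close to each other in both genes, unlike in Krt1. The log2 fold changes were 2.64 (SE 0.27) for Krt6a, 4.23 (SE 0.55) for Krt6b, 3.28 (SE 0.31) for Krt16 and 1.44 (SE 0.30) for Krt17. Krt6a and Krt6b are near-identical neighbours, so how reads were shared between them is uncertain. The keratins of the basal layer did not pass the test, with Krt5 at 0.52 (SE 0.27, adjusted p = 0.280) and Krt14 at 0.66 (SE 0.25, adjusted p = 0.154). Leaving out a DMSO library of culture 1, 2 or 3 gave 6, 3 and 5 higher calls in the keratin list. Any 1 µM library left out gave 4, and culture 1, 2 or 3 left out gave 4, 0 and 9.

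Cornified envelope proteins are cross-linked under the plasma membrane of dying keratinocytes. Lor, which encodes the main envelope protein loricrin, had 3, 0 and 0 counts in DMSO and 107, 106 and 6 counts at 1 µM, a ratio of 64.3 after scaling with an exact 95% counting interval of 21.7 to 314. Flg, which encodes the filament-bundling protein filaggrin, had 3, 0 and 0 counts against 177, 154 and 19, a ratio of 103 (34.9 to 501). Its relative Flg2 had no count in the 3 vehicle libraries and 20, 55 and 5 at 1 µM, which is at least 23.5-fold higher when the vehicle group is set to a floor of 3 counts. Sprr2b, of the small proline-rich family, had no vehicle count either, and its 7, 7 and 1 treated counts put it at least 4.4-fold higher. Low as they are, all these counts rose in every culture, with culture 3 the lowest. The intervals and floors cover counting error only.

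Culture 3 was again the lowest treated library in better counted members of the list. Sprr1a, a precursor of the cornified envelope, went from 9.01, 0.203 and 3.71 to 76.9, 74.3 and 55.8 CPM, and Krtdap, a secreted keratinocyte protein, from 3.11, 0.203 and 0.484 to 27.1, 46.4 and 8.46 CPM. Sprr1b (log2 fold change 4.00, SE 0.46), the calmodulin-like gene Calm4 (4.73, SE 0.57), Rptn, a filaggrin relative (6.09, SE 0.68), and Casp14, the caspase of cornification (2.29, SE 0.28), were called as well. Not called were the transglutaminase gene Tgm1 (0.52, SE 0.17), the plakin gene Ppl (0.48, SE 0.17) and Ivl, the envelope precursor involucrin (2.70, SE 0.97). Rptn overlaps annotated transcripts on the other strand, and whether counting used the strand is not given in the sources used here. Without the DMSO library of culture 1, 2 or 3 the list held 17, 11 and 18 higher calls. It held 11, 9 and 13 without the 1 µM library of culture 1, 2 or 3, and 7, 0 and 31 without culture 1, 2 or 3. Its median stayed between 2.79 and 5.0 over those 9 fits.

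**Figure D2:**
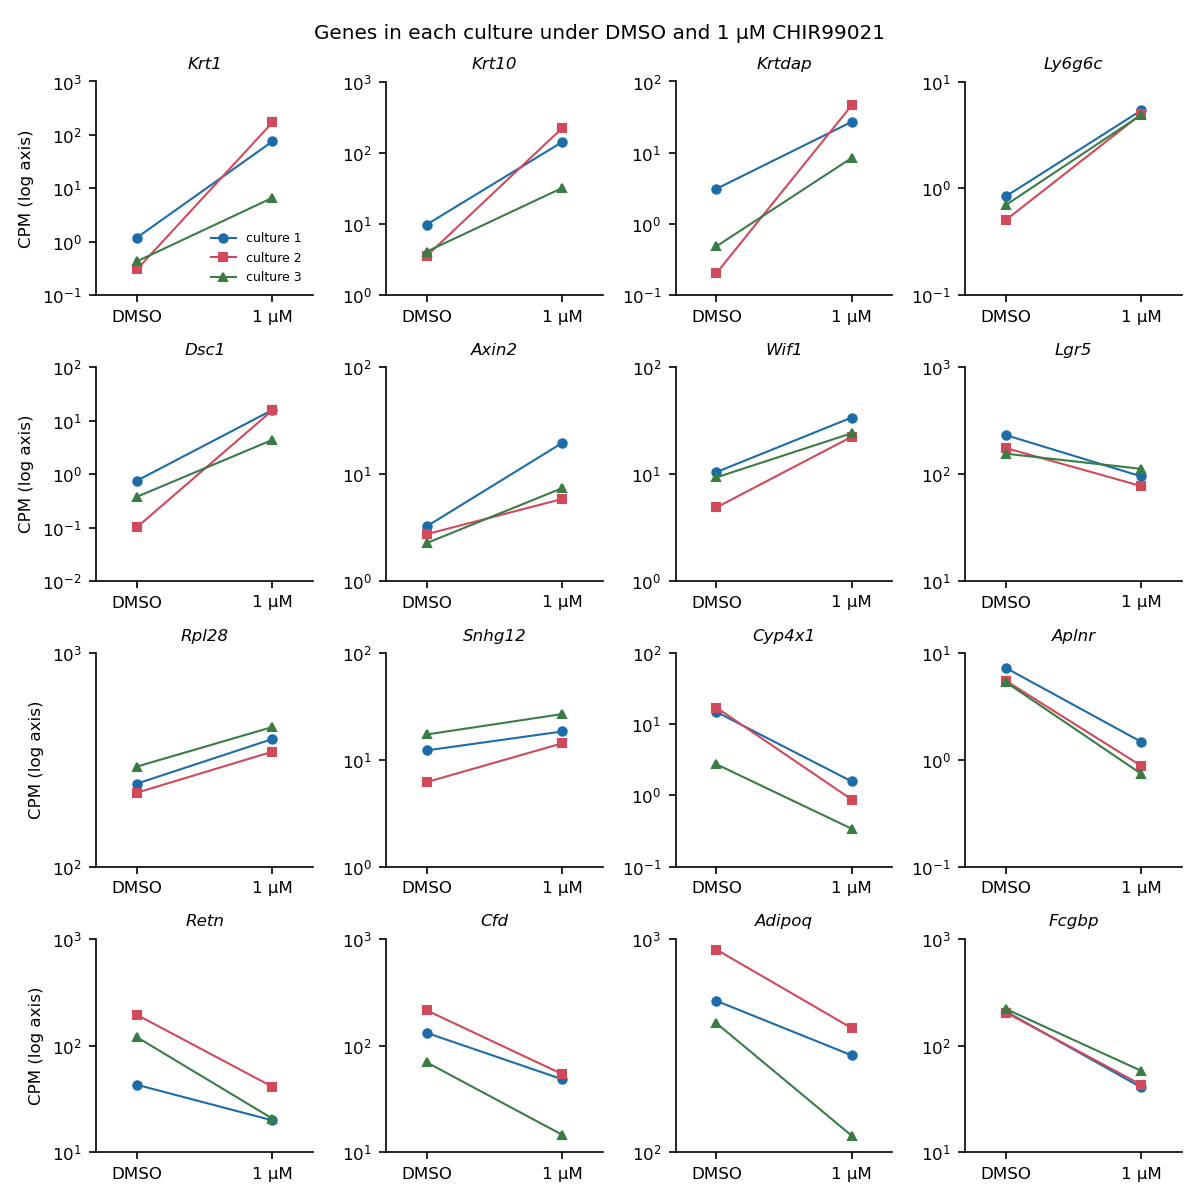
CPM (log axis) of 16 genes in DMSO and at 1 µM, each line joining the 2 libraries of 1 culture. The keratinocyte genes of the top row rose in each culture, with the steepest lines in culture 2, Lgr5 fell in each culture, and Fcgbp fell from between 204 and 219.95 CPM to between 40.5 and 58.0 CPM.

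The 250 bases before the start of 3 of these genes are printed to show an upstream motif found in part of the envelope genes, and were picked for holding it. The sequences are from RefSeq on GRCm38.p6, 5′ to 3′ on the gene's strand, with capitals for the AP-1 motif, searched as TGAGTCA and TGACTCA on both strands. The windows are chr3:92083143-92083392 (minus strand) for Lor, chr3:92485882-92486131 (minus strand) for Sprr1a and chr7:30787655-30787904 (plus strand) for Krtdap.
Lor: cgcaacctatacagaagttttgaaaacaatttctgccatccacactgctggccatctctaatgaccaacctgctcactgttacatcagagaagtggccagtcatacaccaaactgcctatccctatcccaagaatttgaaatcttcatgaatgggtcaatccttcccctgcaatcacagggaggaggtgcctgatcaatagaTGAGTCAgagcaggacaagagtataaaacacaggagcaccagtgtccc
Sprr1a: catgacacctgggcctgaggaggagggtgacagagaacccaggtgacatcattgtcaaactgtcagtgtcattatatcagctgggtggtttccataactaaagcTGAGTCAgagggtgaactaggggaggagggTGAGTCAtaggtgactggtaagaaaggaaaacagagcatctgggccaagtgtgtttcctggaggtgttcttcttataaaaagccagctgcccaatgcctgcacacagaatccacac
Krtdap: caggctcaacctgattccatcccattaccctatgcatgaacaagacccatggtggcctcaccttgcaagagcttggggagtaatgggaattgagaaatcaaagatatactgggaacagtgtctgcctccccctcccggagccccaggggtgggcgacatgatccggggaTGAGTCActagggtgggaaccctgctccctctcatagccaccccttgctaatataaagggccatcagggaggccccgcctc
Of the 44 envelope genes, 39 had a RefSeq promoter entry, and 13 of these (33.3%) held the motif in this window. Over all RefSeq promoters the share was 4.46%, over all gene symbols 5.16%, over the called genes with an entry 8.54% of the higher and 6.76% of the lower. TCF/LEF motifs were searched on both strands of the same bases. The letters were CTTTGAA or with its last base T (CTTTGAT), and CTTTGTA or with its last base T (CTTTGTT). They were in 23.1% of the envelope genes, 11.4% of the higher genes and 13.8% of the lower. Over all gene symbols, counted the same way, the share was 16.8%, and over all promoters 14.8%. The match is a description of letters and was not tested as a binding site.

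Some of the enzymes and inhibitors of the skin barrier were higher too. Of 26 kallikrein, serpin B and inhibitor genes, 9 were higher and 0 lower (34.6% called against 5.61% of all genes, median 1.26). Among the higher were Klk7 and Klk5, proteases that loosen dead surface cells, and Cst6, a cathepsin inhibitor. Cst6 went from 8.30, 3.25 and 4.09 to 50.4, 65.1 and 58.5 CPM (log2 fold change 3.42, SE 0.32, edgeR adjusted p = 0.0031) and Klk7 from 4.75, 1.83 and 1.61 to 36.1, 46.7 and 24.5 CPM (3.62, SE 0.48, adjusted p = 0.00887). The treated libraries lay far above the vehicle ones in both. Csta1 (5.26, SE 0.57) and Serpinb3b (5.01, SE 0.66) have near-identical paralogs, so their values are uncertain. Of 25 barrier lipid enzymes, 9 were higher and 2 lower: Abca12, the transporter that loads lamellar granules, rose by 2.29 (SE 0.38) and the ceramide synthase gene Cers3 by 1.83 (SE 0.41), while Dgat2 and Smpd1 fell. Some members of both lists may have passed the filter on low counts only through the higher doses, so these counts and medians describe the genes that passed. On the 6 libraries alone 22 of the protease and inhibitor genes were tested and 11 higher (median 1.1). Of the lipid enzymes 21 were tested there, 8 higher and 2 lower (median 0.36). These too may have passed through their 1 µM libraries alone. The summed level of the lipid list did not rise, at 416, 602 and 582 CPM in DMSO and 417, 465 and 476 CPM at 1 µM. The protease and inhibitor list held 10, 3 and 7 higher calls without the DMSO library of culture 1, 2 or 3, and 6, 6 and 7 without the 1 µM library of those cultures. It held 3, 0 and 10 without culture 1, 2 or 3. The lipid list held 4, 0 and 7, then 0, 0 and 2, then 0, 0 and 9 in the same order.

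Desmosomes are the spot junctions that fasten keratinocytes to each other. The suprabasal cadherin gene Dsc1 stood at 0.755, 0.101 and 0.377 CPM in DMSO and at 15.9, 15.6 and 4.37 CPM at 1 µM (log2 fold change 4.53, SE 0.39, edgeR adjusted p = 0.00234). Dsg1a was at 2.40, 0.507 and 1.40 CPM and then at 22.1, 19.9 and 9.99 CPM (3.40, SE 0.33). Dsg3, found mostly in the lower layers, went from 33.8, 14.5 and 10.3 to 81.0, 54.4 and 70.0 CPM (1.86, SE 0.32). The plaque protein genes were not called: Dsp was at 0.43 (SE 0.16), Jup at 0.38 (SE 0.14) and Pkp1 at 0.68 (SE 0.20). Leaving out DMSO culture 1, 2 or 3 gave 8, 4 and 6 calls, each 1 µM library 3, and culture 1, 2 or 3 gave 2, 0 and 6.

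Among 25 squamous transcription factor genes, 6 were higher and 1 lower (28.0% called against 5.61% of all genes, median 0.46). Grhl3, a regulator of barrier formation, rose from 1.69, 0.913 and 1.72 to 5.02, 3.65 and 4.20 CPM (log2 fold change 1.51, SE 0.24), and Klf4, needed for the skin barrier, from 25.4, 18.1 and 16.4 to 36.6, 31.1 and 24.9 CPM (0.62, SE 0.12). The groups overlapped for Klf4, since culture 3 at 1 µM lay below culture 1 in DMSO. Pou3f1 (3.29, SE 0.56), Hopx (2.17, SE 0.32), Zfp750 (0.81, SE 0.15) and Grhl1 (0.56, SE 0.12) were the other higher genes. Cebpa, which adipocytes also express, was the lower one (−0.98, SE 0.17). Trp63, the master factor of stratified epithelia, was at 0.31 (SE 0.17, adjusted p = 0.293). The list held 3, 1 and 6 higher calls without DMSO culture 1, 2 or 3, 0, 1 and 1 without the 1 µM library of those cultures, and 1, 0 and 10 without the whole culture.

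The genes with the lowest p among the increases were of several kinds. Ly6g6c, a small GPI-anchored protein (chr17:35065388-35070050), had the lowest p of all, with 0.844, 0.507 and 0.700 CPM in DMSO and 5.38, 4.97 and 4.88 CPM at 1 µM (log2 fold change 2.80, SE 0.19, edgeR adjusted p = 0.00176). Atp6v1c2, a proton pump subunit, rose from 21.2, 15.3 and 16.8 to 66.5, 43.4 and 45.0 CPM (1.52, SE 0.13). Gm94 rose by 5.48 (SE 0.47). The remaining pair, 2410006H16Rik and 1500012F01Rik, are spliced hosts of small nucleolar RNAs (snoRNAs). Ly6g6c shares its locus with Mpig6b and Atp6v1c2 with Pdia6 on the opposite strand. The calls of these 5 genes were lost without culture 2 and in no other of the 9 fits that left out a library or a culture.

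Genes of the protein synthesis machinery rose by small and even amounts. This group was listed after its values had been seen. Of 82 cytosolic ribosomal protein genes, 61 were higher and 1 lower (75.6% called against 5.61% of all genes), and 80 were higher in all 3 cultures. Their median log2 fold change was 0.51, which is 1.43-fold, and it was 0.54, 0.56 and 0.44 in cultures 1, 2 and 3. The summed level of the list rose from 25291 to 37453 CPM in culture 1, from 21507 to 31878 in culture 2 and from 27885 to 38652 in culture 3. The 1 lower gene was Rpl39l, a paralog with its own tissue pattern (−1.43, SE 0.32). Many of these genes have processed pseudogenes that can share their reads.

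Rpl28, of the large subunit (chr7:4792874-4794562), stood at 245, 222 and 294 CPM in DMSO and at 396, 345 and 450.3 CPM at 1 µM (log2 fold change 0.65, SE 0.08, edgeR adjusted p = 0.00715). Rps24, of the small subunit, went from 368, 323 and 418 to 611, 508 and 606 CPM (0.64, SE 0.11). The groups did not overlap in either gene. This held for 78 of the 82, against 19.4% of all genes tested. The calls depended on the library left out: 18, 1 and 49 were higher without the DMSO library of culture 1, 2 or 3, 1, 2 and 1 without the 1 µM library of those cultures, and 0, 0 and 71 without culture 1, 2 or 3. The median stayed between 0.45 and 0.56 in all 9 of these fits. With the culture term removed none was called by edgeR and the median was 0.51, while DESeq2 with the culture term called 72 higher.

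Of 13 snoRNA host genes 10 were higher and 0 lower (76.9% called against 5.61% of all genes, median 0.74). Such transcripts release snoRNAs, which guide ribosomal RNA modification, from their introns. 2410006H16Rik (chr11:62602877-62604807) went from 29.2, 24.5 and 40.4 to 68.0, 52.1 and 81.6 CPM (log2 fold change 1.11, SE 0.08, adjusted p = 0.00176). 1500012F01Rik, which overlaps Znfx1 on the other strand, went from 43.0, 34.4 and 46.3 to 86.2, 68.1 and 94.1 CPM (1.00, SE 0.08). Gas5, a host with many snoRNAs, went from 177, 144 and 203 to 288, 249.9 and 338 CPM (0.74, SE 0.07). Higher too were Snhg4 (0.83), Snhg12 (0.77), Snhg6 (0.75), Dancr (0.70), Snhg1 (0.66) and Snhg5 (0.50). Crnde (1.15), also listed and higher, has no snoRNA among the genes that overlap it in GENCODE M21, so its place in the list is doubtful. The list held 8, 4 and 10 higher calls without DMSO culture 1, 2 or 3, 6, 4 and 6 without the 1 µM library, and 2, 0 and 10 without the culture.

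Ribosomal protein and snoRNA host transcripts are known for a run of pyrimidines at their start. The bases from 30 before to 20 after the RefSeq start are printed for 3 of each kind (GRCm38.p6, 5′ to 3′ on the gene's strand). They were picked for holding a run near the start, which is in capitals. In Snhg1 the run begins after the RefSeq start, and in the others before it. The printed bases lie at chr7:4792935-4792984 (plus) for Rpl28, chr17:33955646-33955695 (minus) for Rps18, chr14:24490648-24490697 (plus) for Rps24, chr11:62602847-62602896 (plus) for 2410006H16Rik, chr4:132308648-132308697 (plus) for Snhg12 and chr19:8723457-8723506 (plus) for Snhg1.
Rpl28: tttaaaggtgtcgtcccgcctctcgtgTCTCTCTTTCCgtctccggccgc
Rps18: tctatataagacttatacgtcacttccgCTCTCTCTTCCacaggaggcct
Rps24: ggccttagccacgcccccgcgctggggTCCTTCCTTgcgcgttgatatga
2410006H16Rik: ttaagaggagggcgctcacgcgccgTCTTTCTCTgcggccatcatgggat
Snhg12: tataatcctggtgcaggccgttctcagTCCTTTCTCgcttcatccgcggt
Snhg1: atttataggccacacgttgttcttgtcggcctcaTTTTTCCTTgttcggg
A run of at least 8 bases that are all C or T, within 20 bases of the start, was found in 31 of the 61 ribosomal protein genes with an entry (50.8%) and in 5 of 10 snoRNA hosts, against 16.5% of all promoters and 18.8% of all symbols. Of the 390 higher genes 281 had an entry and 24.9% of these held a run, and of the lower genes 18.8%. The match is a description only.

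The factors that load and move ribosomes changed less than the ribosome itself. Of 41 translation factor genes 10 were higher and 0 lower (24.4% called against 5.61% of all genes, median 0.16). Eef1b2 was at 0.65 (SE 0.12), Eef2, the translocation factor, at 0.46 (SE 0.11) and the cap-binding protein gene Eif4e at 0.00 (SE 0.10). Of 75 ribosome biogenesis genes 21 were higher and 0 lower (28.0% called, median 0.28), and 65 were higher in all 3 cultures. Among them were Polr1b, a subunit of the polymerase that makes ribosomal RNA (0.53, SE 0.08), the nucleolar GTPase gene Gnl3 (0.53, SE 0.07) and Nop56 of the snoRNA particles (0.45, SE 0.10). Myc, a known driver of this programme, was at 40.7, 40.4 and 54.2 CPM in DMSO and at 64.0, 57.0 and 79.9 CPM at 1 µM. Its groups did not overlap, but it did not pass the test (0.57, SE 0.15, adjusted p = 0.0652). The biogenesis list held 7, 1 and 11 higher calls without DMSO culture 1, 2 or 3, 0, 1 and 0 without the 1 µM library, and 0, 0 and 29 without the culture. For the translation factors the numbers were 2, 0 and 3, then 0, 1 and 0, then 0, 0 and 9.

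**Figure D3:**
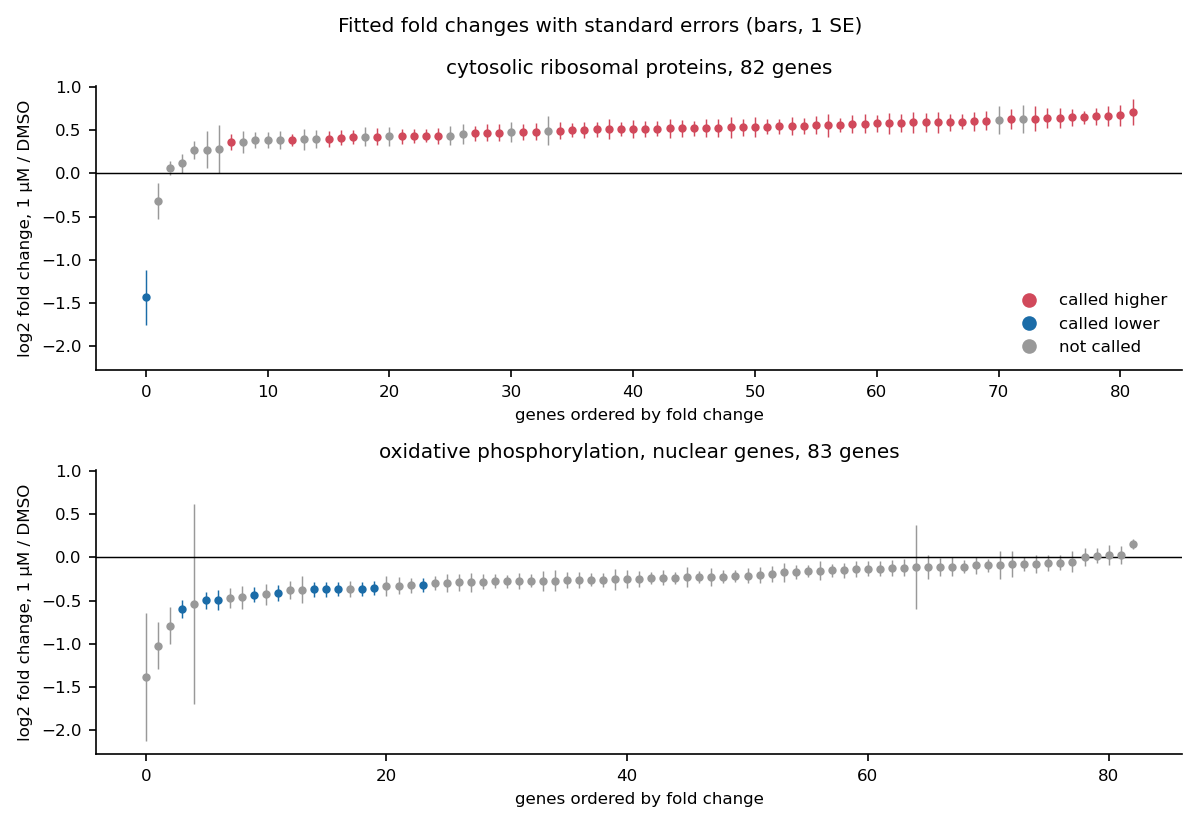
Fitted log2 fold change of each gene, 1 µM over DMSO (vertical axis, bars 1 SE), ordered by size, for 82 ribosomal protein genes (upper) and 83 nuclear genes of oxidative phosphorylation (lower). The upper genes sit around a median of 0.51 and the lower ones around −0.25, with calls in colour.

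Cell division genes had few calls, and small changes can be missed, since 16.4% of simulated 1.5-fold changes were recovered. The simulation changed few genes, drawn at random from all those tested, so recovery among cell division genes in these data may differ. Of 43 mitosis genes none was called by edgeR or DESeq2, and none had an unadjusted p under 0.05 (median 0.18, with culture medians of −0.09, 0.17 and 0.45). Mki67, the proliferation marker, was at 59.5, 71.1 and 54.0 CPM in DMSO and at 58.2, 83.8 and 76.1 CPM at 1 µM (log2 fold change 0.26, SE 0.31, adjusted p = 0.669). It was lower in culture 1 and higher in the other two. Of 40 DNA replication genes 1 was higher (2.5% called, against 5.61% of all genes), the maintenance methyltransferase gene Dnmt1 (0.43, SE 0.09). The replication list had a median of 0.15. Leaving out a library or culture gave 0 to 2 calls among the replication genes. In all 3 cultures 10 mitosis genes were higher and 0 lower, and 18 replication genes were higher and 2 lower. Over all genes tested 28.2% were higher and 30.4% lower in all 3 cultures.

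Markers of fat cells were lower at 1 µM. All 10 adipocyte markers were lower in all 3 cultures, and 4 of the 10 were called, against 3.06% of all genes called lower (median log2 fold change −1.36). Their summed level went from 9071 to 5043 CPM in culture 1, from 17916 to 7002 in culture 2 and from 7528 to 2381 in culture 3. The summed level of fibroblast markers moved far less, from 5782 to 4867, from 14263 to 12386 and from 28725 to 27797 CPM, with none of 16 called by edgeR or DESeq2 and 1 at an unadjusted p under 0.05 (median −0.12); 2 were called lower without culture 3 and 1 without its DMSO library. In bulk RNA, fewer cells of a type and less RNA per cell cannot be told apart.

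Retn, the adipokine resistin, stood at 42.9, 194 and 119.75 CPM in DMSO and at 19.9, 41.2 and 20.7 CPM at 1 µM (−2.06, SE 0.45, edgeR adjusted p = 0.0364). Cfd, the fat-cell protease adipsin, went from 132, 214 and 69.7 to 48.5, 54.2 and 14.6 CPM (−1.93, SE 0.37, adjusted p = 0.0262). Pparg, the master regulator of fat cells, went from 71.5, 151 and 75.2 to 38.3, 57.2 and 24.8 CPM (−1.33, SE 0.23, adjusted p = 0.0196). No treated library of these 3 genes reached the lowest vehicle library. Fabp4, a fatty acid carrier, was also called (−1.42, SE 0.31). Adipoq went from 512, 889.8 and 403 to 285, 382 and 119.7 CPM without passing the test (−1.36, SE 0.47, adjusted p = 0.126). Lpl (−1.22), Plin1 (−1.35), Plin4 (−1.41) and Cidec (−1.33) did not pass either. The marker list held 4, 0 and 1 lower calls without the DMSO library of culture 1, 2 or 3, 0 without any 1 µM library, and 0, 0 and 8 without culture 1, 2 or 3, with a median between −1.66 and −0.96.

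Genes of fat storage and breakdown, which include several of the markers and were listed after the values had been seen, had many lower calls. Of 37 genes 18 were lower and 0 higher (48.6% called against 5.61% of all genes, median −0.98), and 32 were lower in all 3 cultures. Adrb3, the β3-adrenergic receptor of fat cells, went from 89.6, 219 and 78.6 to 35.4, 68.1 and 17.1 CPM (−1.77, SE 0.29), and Pnpla2, the lipase that starts triglyceride breakdown, from 457, 858 and 393 to 262, 314 and 129 CPM (−1.30, SE 0.19). In both genes culture 2 was the highest vehicle library and culture 3 the lowest treated one. Among the largest decreases of all genes were also the lipase gene Ces1d (−2.48, SE 0.36) and Sncg (−1.88, SE 0.39), which fat cells express. The oxidoreductase genes Rdh12 (−2.12, SE 0.42) and Marc1 (−2.10, SE 0.39) were among them too. Ces1d, Sncg, Rdh12 and Marc1 kept their calls in 3, 1, 2 and 3 of the 9 fits that left out a library or a culture. Of 34 fatty acid and cholesterol synthesis genes only Insig1, the sterol sensor, was called (−1.27, SE 0.30), a share of 2.94% against 5.61% of all genes. The list median was still −0.46, with 20 genes lower and 1 higher in all 3 cultures. At an unadjusted p under 0.05 in edgeR 16 were lower, and DESeq2 called 12 lower. The summed level fell from 22594 to 17533, from 47550 to 21725 and from 21190 to 8985 CPM in cultures 1, 2 and 3. Fasn (−1.08, SE 0.27) and Scd1 (−1.14, SE 0.40) did not pass. Without the DMSO library of culture 1 this list held 10 lower calls. The storage list held 17, 0 and 12 lower calls without DMSO culture 1, 2 or 3, 1, 0 and 0 without the 1 µM library, and 4, 0 and 22 without the culture.

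Transcripts of mitochondrial fuel oxidation genes were lower by smaller amounts. These lists too were drawn up after the values had been seen. Of 24 citrate cycle and pyruvate dehydrogenase genes 11 were lower (median −0.42), of 39 fatty acid oxidation genes 15 (median −0.37), of 22 genes of branched-chain amino acid breakdown 9 (median −0.32) and of 83 nuclear genes of oxidative phosphorylation 11 (median −0.25). None of these 4 lists had a higher call. The shares called were 45.8%, 38.5%, 40.9% and 13.3% in that order, against 5.61% of all genes. Cs, citrate synthase, went from 588, 984 and 497 to 468, 548 and 286 CPM (−0.66, SE 0.14). Idh1, the cytosolic isocitrate dehydrogenase and so not a mitochondrial enzyme, went from 512, 633 and 381 to 371, 356 and 245 CPM (−0.65, SE 0.09, edgeR adjusted p = 0.0113). The groups overlapped for Cs but not for Idh1. Ppara, the receptor that drives fatty acid oxidation genes, was lower (−1.19, SE 0.20), as was Cycs, cytochrome c (−0.59, SE 0.11). The summed adipocyte markers fell in the same libraries, and their part in these mitochondrial changes was not tested.

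Depending on the library left out, the calls in the mitochondrial lists came and went. The citrate cycle list held 13, 1 and 8 lower calls without DMSO culture 1, 2 or 3, 2, 0 and 0 without the 1 µM library, and 0, 0 and 9 without the culture. For fatty acid oxidation the numbers were 8, 1 and 12, then 2, 0 and 0, then 0, 0 and 17. For branched-chain amino acids they were 8, 0 and 6, then 0 for each 1 µM library, then 0, 0 and 7. Oxidative phosphorylation held 9, 0 and 3, then 0 for each 1 µM library, then 0, 0 and 10, and 4 with scaling by library size alone. All 4 medians stayed below 0 in every one of these fits.

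**Figure D4:**
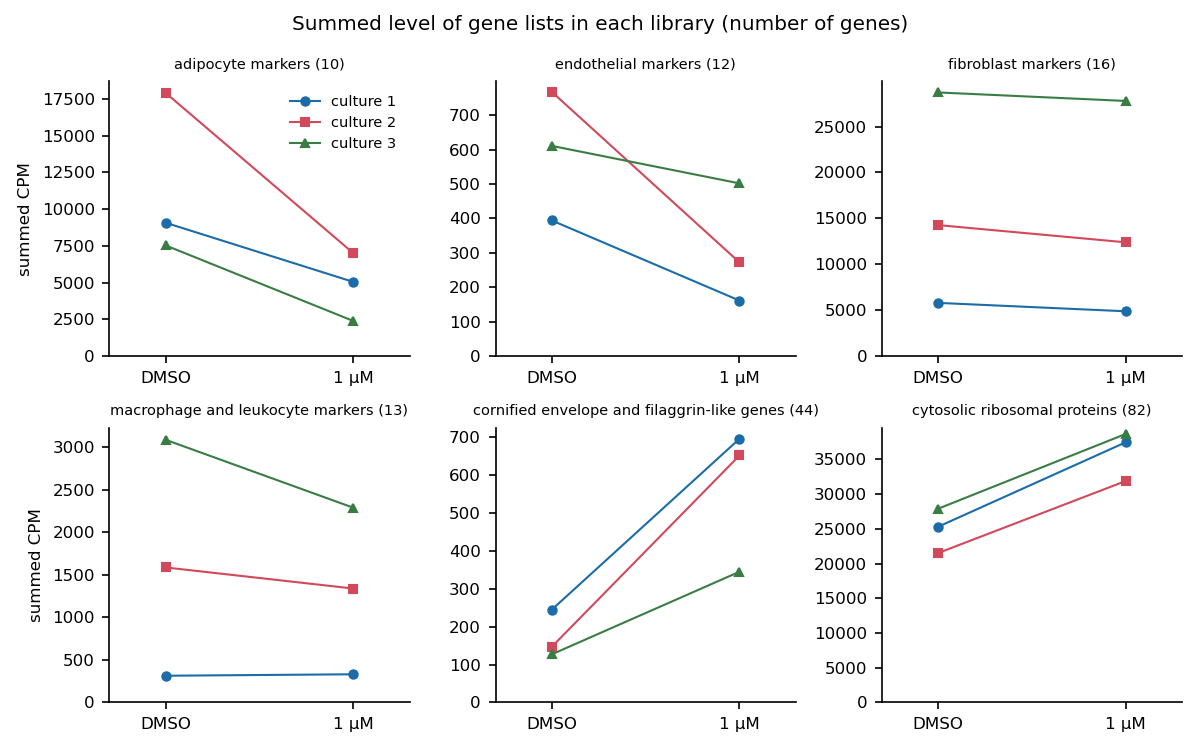
Summed CPM of 6 gene lists in each library (vertical axes from 0, number of genes in brackets), with a line for each culture from DMSO to 1 µM. Adipocyte markers fell in all 3 cultures while fibroblast markers kept the order of the cultures, from 5782 to 28725 CPM in DMSO and from 4867 to 27797 CPM at 1 µM.

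Of 12 endothelial markers 3 were lower and 0 higher (median −1.08), and 11 were lower in all 3 cultures. Kdr, the VEGF receptor, went from 42.4, 85.6 and 56.3 to 17.9, 29.8 and 43.8 CPM (−1.08, SE 0.24, edgeR adjusted p = 0.0378), and Plvap, of fenestrated vessels, from 36.1, 43.4 and 26.6 to 11.7, 11.2 and 16.9 CPM (−1.47, SE 0.33). Culture 3 changed least, and its treated Kdr level lay above the vehicle level of culture 1. Tek fell by 1.42 on the log2 scale. Aplnr, the apelin receptor, which vessels express (chr2:85136225-85139923), was among the largest decreases of all genes: 7.24, 5.48 and 5.33 CPM in DMSO and 1.47, 0.876 and 0.738 CPM at 1 µM (−2.56, SE 0.28, adjusted p = 0.0052). The endothelial list held 0, 0 and 10 lower calls without DMSO culture 1, 2 or 3, 0 without any 1 µM library, and 0, 0 and 11 without culture 1, 2 or 3, whereas Aplnr lost its call only without culture 2. Of 13 macrophage and leukocyte markers 1 was lower (7.69% called, against 5.61% of all genes), the receptor gene Csf1r (−0.44, SE 0.09). The call of Csf1r was lost in each of the 9 fits, and Cd3e and Cd79a had too few counts to be tested. Adgre1 was not found in the table under that symbol.

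Other genes with large decreases or low p belonged to none of these marker lists, and the cells they came from were not tested. Fcgbp, a mucus protein (chr7:28071236-28120862), had among the lowest p of the decreases, with 208, 204 and 219.95 CPM in DMSO and 40.5, 42.9 and 58.0 CPM at 1 µM (−2.17, SE 0.18, edgeR adjusted p = 0.0023). Cyp4x1, a cytochrome P450 (chr4:115106323-115134281), had the largest fitted decrease of the genes with an average of at least 50 counts, from 14.9, 17.1 and 2.74 to 1.57, 0.876 and 0.341 CPM (−3.56, SE 0.32, adjusted p = 0.00234). It overlaps the antisense gene Cyp4x1os, which fell further (−4.18), and without strand-aware counting their reads cannot be told apart. Hey2, a transcription factor of the Notch pathway (chr10:30832359-30842801), went from 38.4, 32.9 and 33.6 to 12.6, 14.1 and 13.5 CPM (−1.39, SE 0.11, adjusted p = 0.00227). It was the 1 call in a Notch list of 27 (median −0.04), a share of 3.7% against 5.61% of all genes. The Notch list held 5 lower calls without the DMSO library of culture 3 or without culture 3. The calls of Fcgbp, Cyp4x1 and Hey2 were lost only without culture 2. Cyb5a, an electron carrier of lipid enzymes, was lower by 0.93 on the log2 scale (SE 0.10) and lost its call without culture 1 or 2. The other large decreases were Tmigd1, an immunoglobulin-domain membrane protein, from 12.6, 36.3 and 11.7 to 4.52, 6.87 and 1.82 CPM (−2.21, SE 0.35), Chodl, a C-type lectin (−2.21, SE 0.42), and Csmd1 (−2.20, SE 0.45). The groups of Chodl overlapped, with culture 1 at 0.311 CPM in DMSO and 0.101 CPM at 1 µM, while those of Tmigd1 and Csmd1 did not. Csmd1 overlaps several genes on the other strand. All 3 lost their calls without any 1 µM library, without the DMSO library of culture 2 and without culture 1 or 2. Csmd1 also lost its call without the DMSO library of culture 1, and Chodl without that of culture 3 or without culture 3.

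Contractile and milk genes added some more. Of 18 myoepithelial contractile genes 4 were lower and 0 higher (22.2% called against 5.61% of all genes, median −0.67). Among them Myh11, smooth muscle myosin, went from 54.1, 73.3 and 112 to 13.8, 20.2 and 45.4 CPM (−1.70, SE 0.26, edgeR adjusted p = 0.0136), and Tagln and Mylk fell by 0.70 and 0.93 on the log2 scale. Acta2 was at −0.87 (SE 0.51) and was not called. Vessel walls express these genes as well, and endothelial markers fell in the same libraries; their part was not tested. Of 27 milk and alveolar genes 3 were lower and 0 higher (11.1% called against 5.61% of all genes, median −0.03). The lower genes were Btn1a1, of the milk fat globule (−0.95, SE 0.17), Mfge8 (−0.46, SE 0.11) and Fcgbp. The list held 0 to 3 lower calls over the 9 fits that left out a library or a culture, and Mfge8 lost its call in each of them. Neither 21 basal nor 20 simple luminal genes had a call by edgeR (medians 0.01 and 0.24), with 4 and 6 at an unadjusted p under 0.05, and DESeq2 called 3 luminal genes higher. On the 6 libraries alone edgeR called 2 basal genes higher and 3 lower, and 5 luminal genes higher and 1 lower. It called 2 basal genes lower without the DMSO library of culture 3 and 3 without culture 3, and 1 luminal gene higher in each of these fits. The contractile list held 3, 0 and 3 lower calls without DMSO culture 1, 2 or 3, 0, 0 and 1 without the 1 µM library, and 0, 0 and 9 without the culture.

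The same genes were followed to 1.5 and 3 µM, with the reminder that all 3 doses share the same 3 vehicle libraries. The cornified envelope list had 20, 43 and 44 higher calls of 44 at 1, 1.5 and 3 µM, with medians of 3.15, 6.11 and 8.86. Ribosomal proteins had 61, 80 and 80 higher calls of 82 (medians 0.51, 0.91 and 1.67). Mitosis genes had 0, 43 and 43 higher calls of 43 (0.18, 1.78 and 2.36), and DNA replication genes 1, 34 and 39 of 40. In the direct contrast of 1.5 with 1 µM all 43 mitosis genes and 34 of the 40 replication genes were higher.

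Among the decreases, adipocyte markers had 4, 10 and 10 lower calls of 10 (medians −1.36, −3.19 and −6.06) and endothelial markers 3, 11 and 11 of 12 (−1.08, −2.34 and −2.72). Fibroblast markers, with 0 calls at 1 µM, had 12 and 14 lower calls of 16 at 1.5 and 3 µM (−0.12, −1.18 and −2.34), and macrophage markers 1, 12 and 12 of 13. The nuclear genes of oxidative phosphorylation had 0, 1 and 41 higher and 11, 29 and 7 lower calls of 83, with medians of −0.25, −0.18 and 0.28. WNT feedback genes had 2, 6 and 7 higher and 1, 1 and 2 lower calls of 13. Axin2 had log2 fold changes of 1.91, 3.31 and 4.92, Wif1 of 1.65, 2.19 and 0.95, and Lgr5 of −1.01, −2.19 and −9.36.

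**Figure D5:**
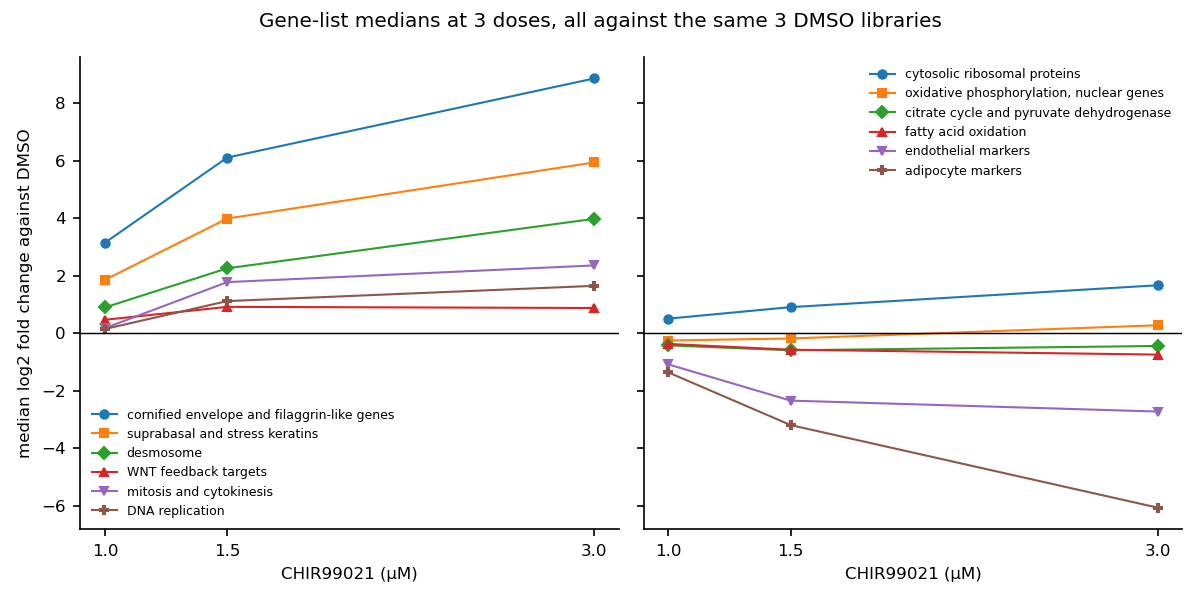
Median log2 fold change against DMSO (vertical axis) of 12 gene lists at 1, 1.5 and 3 µM CHIR99021 (horizontal axis), all against the same 3 DMSO libraries. The mitosis and replication lists are near 0 at 1 µM (0.18 and 0.15) and at 1.78 and 1.12 at 1.5 µM, while envelope, adipocyte and endothelial lists are away from 0 at the lowest dose.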

How the data were processed

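Poly(A) RNA from 12 organoid cultures was sequenced with a stranded kit, per the labels' protocols. The submitters' processing notes name TopHat2 2.1, Bowtie 1.1.0, HTSeq and DESeq2 with GRCm38/mm10; the strand setting of counting and the annotation release are not given in the sources used here. The authors deposited raw read counts per Ensembl gene (25210 genes) and log2 values, which were recomputed as log2 of the count per 10 M plus 1 and used only in that check.

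Counts of all 12 libraries were scaled by TMM and fitted with edgeR 4.0.16 (R 4.3.3, limma 3.58.1; quasi-likelihood, culture and group as terms), after filterByExpr kept 15316 genes, with Benjamini-Hochberg adjustment over all of them. An adjusted p under 0.05 made a call. CPM are TMM-scaled, and differences between the libraries of a culture are in log2 CPM with a prior count of 2. Each replicate number is 1 animal, per the series' design text. Deviations from the group means correlated at 0.84, 0.49 and 0.797 within the 3 cultures and between −0.728 and 0.00262 across them. The deviations of a group's 3 libraries cancel by construction, so high values within cultures force lower ones across. The values across cultures are therefore no separate evidence for the pairing. With 3 pairs the smallest two-sided sign test p is 0.25, so directions are given as counts.

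Named genes were called, averaged at least 50 counts and moved 1 way in all cultures: the 12 largest changes and 5 lowest p in each direction, besides members of the gene lists. The members and lists were chosen with earlier results of these data known, and 12 lists were added after values at 1 µM had been seen. No set test was run. On simulated counts of this comparison over 15316 genes, 16.4% of 67 genes changed 1.5-fold, 53.7% of 67 changed 2-fold and 84.8% of 66 changed 4-fold were recovered, with 7 unchanged genes called. These genes were drawn at random and all others left unchanged. More genes were called in the data, so recovery there may differ. Alternatives were the fit without cultures, fewer libraries, DESeq2 1.42.0, other scalings and filters, and leaving out each library or culture. Promoter sequences are from RefSeq. Of the gene identifiers 24902 were found in GENCODE M21, which gave overlaps. The result of 1 list member is not reported here.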

Additional observations from a re-analysis of the deposited data

How the results depend on the processing

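The pairing by culture and single libraries set how many genes were called. The called genes kept their direction in every alternative run, which their selection from the same libraries largely fixed in advance. Without the replicate block 37 genes were called (29 higher, 8 lower) against 859 (390 and 469) with it. Fits on fewer groups called more: 2957 (1004 and 1953) with only the 6 libraries of DMSO and 1 µM, and 2137 (882 and 1255) without the 3 µM group. DESeq2 with the block called 1707 (683 and 1024). Scaling by library size alone called 872 (582 and 290) and moved the median of all genes to 0.072. RLE scaling gave 865, no filter on low counts 679, and a mean of at least 50 counts 806. Leaving out 1 library or 1 culture gave 0 to 1556 calls, 0 to 605 higher and 0 to 951 lower; the count was 0 without culture 2, with 1670 genes at an unadjusted p under 0.05. The causes of these shifts were not tested. Genes higher and lower in all 3 cultures numbered 4326 and 4655, and 6004 and 3362 with scaling by library size alone. DMSO culture 2 was the shallowest library at 10.1 M counts, and genes near 0 in DMSO, such as the late envelope genes, rest on few counts there.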

Other observations

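Several gene groups outside the programmes above are given here as values with no explanation. The list of 13 genes of the interleukin-1 and interleukin-36 family was drawn up after values were seen. In it 3 were higher and 0 lower (23.1% called against 5.61% of all genes, median log2 fold change 0.66). They were Il1a, an alarm cytokine of keratinocytes (3.45), and the IL-36 genes Il1f6 and Il1f8. Il1f6 had 1, 0 and 0 counts in DMSO and 20, 52 and 3 at 1 µM, and Il1f8 had 1, 0 and 0 against 24, 37 and 4. Both may have passed the filter on low counts only through the libraries where they are high. Their calls therefore describe genes that passed and support nothing further about the family. The family held 0 to 6 higher calls over the fits that left out a library or a culture, with 6 without culture 3 and 0 without culture 1 or 2.

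Of 26 NRF2 antioxidant genes 6 were lower and 0 higher (23.1% called, median −0.38). Of 18 glycogen metabolism genes 4 were lower and 1 higher (27.8% called, median −0.51). Over all genes the share was 5.61%. The first list held 0 to 8 lower calls over the same fits and the second 0 to 8, the highest in both without culture 3. Slc1a2, a glutamate transporter, went from 30.5, 31.1 and 26.5 to 8.02, 9.45 and 9.25 CPM (−1.71, SE 0.22, edgeR adjusted p = 0.00795). Of 25 Hox genes, also listed after values were seen, 1 was called, a share of 4.00% against 5.61% of all genes. It was Hoxb6 (−1.12, SE 0.20), which kept its call in 3 of the 9 fits that left out a library or a culture. The list median was −0.69 and 21 were lower in all 3 cultures.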
